A study of Mus musculus with 12 samples.

Results

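Dbp, Tef and Hlf are the 3 PAR bZIP transcription factors of the mouse, the factors through which the circadian clock drives much of its rhythmic output. They are described here with Nfil3, a bZIP factor that represses at the same DNA sites, and Bhlhe41, a repressor of the clock loop itself. The 5 genes were taken as every probe set annotated to 1 of them and to no other gene, which gave 9 probe sets and 5 of the 12394 genes that have a probe set of 1 gene. They were chosen from the mdx against control values at 10.5 months, where Dbp and Tef were among the 6 genes called, so the 10.5-month values of all 5 are given below as a description and without a test. A filter on low signal passed 4 of the 5 genes and 8 of the 9 probe sets, among 8852 genes and 14932 probe sets. Bhlhe41 lay just outside it with a mean scaled signal of 99.5 against the minimum of 100, while the dimmest probe set of Tef (118.6) and Nfil3 (127.7) lay just inside.

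RNA was measured on 12 Affymetrix expression arrays of mouse heart, 3 for each of 4 groups. At 8 weeks and at 10.5 months of age there was a control group and an mdx group, and the series title calls the controls wild type. The mdx mouse, the standard model of Duchenne muscular dystrophy, carries a point mutation in the dystrophin gene Dmd in every cell. The labels give no strain background, sex, pooling, time of day at collection or light schedule, and do not say whether the 3 arrays of a group came from 3 animals, so p-values measure only the spread between arrays, which may in part be technical. The time of collection matters for these genes, because their transcripts cycle over the day; its part in the differences was not tested, since nothing in the labels or files records it.

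The PAR bZIP factors bind D-box elements and activate transcription there. Their own genes are switched on by CLOCK and BMAL1 through E-boxes, so their messages rise and fall each day in liver, kidney and heart. Nfil3, also called E4BP4, is under the control of the REV-ERB repressors and in liver peaks in antiphase to Dbp, so that activator and repressor occupy the D-box in turn. Bhlhe41, also called DEC2, competes with CLOCK and BMAL1 at E-boxes. Mice that lack all the PAR bZIP factors have an enlarged heart and low blood pressure.

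Promoters of the 5 genes were read from RefSeq (GRCm38.p6), from 250 bases before to 50 bases after each annotated start. RefSeq gave 6 such windows, with 2 for Tef. They are shown so that the elements through which clock proteins are known to act can be looked up in them. Whether these elements have a part in the levels on the arrays was not tested. No motif searched was common to the windows of Dbp, Tef and Hlf. Both strands were searched, capitals mark a motif found, and no match overlapped another. The Dbp and Tef windows are given whole, and the others as the stretch around the match. All are written 5′ to 3′ along the strand of the gene. The last line gives the stretch of the Per3 promoter that holds matches to the D-box.
Dbp, chr7:45704997-45705296, plus strand: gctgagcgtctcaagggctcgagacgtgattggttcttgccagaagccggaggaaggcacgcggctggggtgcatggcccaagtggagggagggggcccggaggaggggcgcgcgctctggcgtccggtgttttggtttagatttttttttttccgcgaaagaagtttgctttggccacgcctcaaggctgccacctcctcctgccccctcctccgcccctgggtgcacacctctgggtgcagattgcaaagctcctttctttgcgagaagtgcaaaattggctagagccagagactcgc
Tef first promoter, chr15:81802423-81802722, plus strand: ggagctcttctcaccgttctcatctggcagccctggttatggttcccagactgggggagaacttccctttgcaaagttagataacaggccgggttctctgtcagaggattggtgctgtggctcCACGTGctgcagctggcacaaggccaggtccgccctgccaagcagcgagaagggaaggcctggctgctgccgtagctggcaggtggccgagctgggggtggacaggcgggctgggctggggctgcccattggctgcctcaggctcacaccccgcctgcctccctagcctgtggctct
Tef second promoter, chr15:81811164-81811463, plus strand: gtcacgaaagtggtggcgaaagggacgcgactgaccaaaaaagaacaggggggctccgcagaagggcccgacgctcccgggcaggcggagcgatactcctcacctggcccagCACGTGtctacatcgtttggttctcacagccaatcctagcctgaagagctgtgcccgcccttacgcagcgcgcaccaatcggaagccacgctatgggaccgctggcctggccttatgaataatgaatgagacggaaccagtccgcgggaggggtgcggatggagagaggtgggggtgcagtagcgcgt
Hlf window, chr11:90390894-90390951, minus strand: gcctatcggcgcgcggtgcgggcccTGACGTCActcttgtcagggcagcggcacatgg
Nfil3 window, chr13:52981020-52981076, minus strand: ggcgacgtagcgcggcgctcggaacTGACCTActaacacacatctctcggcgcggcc
Bhlhe41 window, chr6:145865543-145865598, minus strand: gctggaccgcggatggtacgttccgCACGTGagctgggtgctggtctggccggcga
Per3 window, chr4:151044796-151044890, minus strand: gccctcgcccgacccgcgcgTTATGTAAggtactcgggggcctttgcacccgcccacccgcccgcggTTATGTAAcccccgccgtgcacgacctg

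The canonical E-box CACGTG stood in both Tef windows, 127 and 138 bases before the start, and in the Bhlhe41 window 153 bases before it. Of all 32851 promoter windows of this length 7.15% hold it. The half-site bound by ROR and REV-ERB proteins (TAGGTCA or TGGGTCA) stood in the Nfil3 window, 12 bases before the start on the opposite strand, where it reads TGACCTA in the line above. Of all windows 6.45% hold this half-site. The Hlf window held the cAMP response element TGACGTCA 9 bases before the start, as did 1.79% of all windows. The D-box letters searched, TTATGTAA or TTACGTAA, were in 0 of the 6 windows and in 1.06% of all windows. Promoters of the core clock genes and of the 8 genes most like Dbp, both described below, were searched too. The D-box was in 1 of 18 core clock promoters (11 genes) and in 1 of the 8 others, which was Per3 both times. Per3 is shown because of this match, and its promoter held TTATGTAA at 2 places, 205 and 158 bases before its start. The Dbp window held none of the 4 motifs, which says only that these letters are not in this window.

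The labelled tissue was checked first. The 8 heart muscle markers, among them the myosin gene Myh6 and the troponin gene Tnnt2, were bright on every array, with summed scaled signals of 122600 to 381500. Of 6 markers of skeletal muscle 0 passed the filter, and their summed signal was at most 422.6 (Myh2 at most 189.1, Myh4 at most 69.3, Actn3 at most 26.7). The records also carry extraocular muscle as a keyword, and none of these 6 markers is particular to that muscle. Dmd gave signals of 606.6 to 839.4 on the control arrays and 159.2 to 286.1 on the mdx arrays. Signals are scaled units, with each array set to a trimmed mean of 500, and give no amounts that can be compared between probe sets. The marker sums are thus only a coarse check of the tissue, and in every such sum the brightest genes weigh most. The upper end of the signal range was wider on 4 arrays (control replicate 2 and mdx replicates 1 and 2 at 8 weeks, mdx replicate 3 at 10.5 months). In whole heart, fewer cells of a type and less RNA per cell cannot be told apart.

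The activators were low together in old mdx heart. At 10.5 months each of Dbp, Tef and Hlf had its 3 mdx signals below its 3 control signals, by 4-fold, 2.48-fold and 1.93-fold, while the repressors Nfil3 and Bhlhe41 overlapped between the groups. At 8 weeks the same 3 activators had negative values of smaller size, and 0 of the 4 tested genes passed the test (limma, Benjamini-Hochberg adjusted p over 14932 probe sets). In control hearts the 2 ages overlapped for all 5 genes.

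Dbp, the activator of highest daily amplitude in many tissues, gave scaled signals of 1176.8, 1486.3 and 772.1 on the control arrays at 8 weeks and of 701.0, 446.6 and 795.6 on the mdx arrays. At 10.5 months the controls gave 1194.4, 1321.9 and 1922.9 and the mdx hearts 457.0, 267.3 and 313.6. Young groups overlapped, since 1 mdx array (795.6) lay above 1 control array (772.1), and old groups did not, the highest mdx array lying far below the lowest control. The 8-week difference was -0.78 ± 0.28 (SE) on the log2(signal + 32) scale, with a 95% interval of -1.39 to -0.17 and an adjusted p of 0.170 in limma, and it did not pass. At 10.5 months the difference was -2.00 ± 0.28, from 1480 ± 389 to 346.0 ± 98.9 (SD, n = 3). For dim probe sets a fold on this offset scale is smaller than the fold of the signals themselves. Ordered by mean, control hearts at 10.5 months came first, then control at 8 weeks (1145 ± 358), mdx at 8 weeks (647.7 ± 181) and mdx at 10.5 months, and each neighbouring pair in that order overlapped.

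Tef, the thyrotroph embryonic factor, had its brightest probe set at 2568.6, 2303.9 and 2061.0 in young controls and at 2039.9, 2008.0 and 1880.5 in young mdx hearts. The old controls gave 1850.5, 1991.4 and 2717.9 and the old mdx hearts 1126.4, 850.3 and 643.6. The young groups were separated only by the step from 2039.9 to 2061.0, which quantile normalization removed, and the old mdx arrays stood below all 9 other arrays. The difference was -0.22 ± 0.20 at 8 weeks (95% interval -0.65 to 0.22, adjusted p = 0.614 in limma) and -1.31 ± 0.20 at 10.5 months. In the order of group means only mdx at 10.5 months (873.5 ± 242) was apart from its neighbour.

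Hlf, the hepatic leukaemia factor, is the third activator. Its signals were 365.6, 411.7 and 379.0 in young controls, 333.8, 312.8 and 337.5 in young mdx hearts, 339.5, 431.6 and 515.5 in old controls and 241.7, 184.6 and 188.5 in old mdx hearts. On this probe set, the brightest of Hlf, the mdx arrays lay below the controls of their age without overlap at both ages. The second probe set, given below, overlapped at 8 weeks. The old mdx arrays lay below every other array. The difference was -0.21 ± 0.16 at 8 weeks (95% interval -0.56 to 0.14, adjusted p = 0.535 in limma) and -0.95 ± 0.16 at 10.5 months. Both steps from control at 8 weeks (385.4 ± 23.7) to mdx at 8 weeks (328.0 ± 13.3) and on to mdx at 10.5 months (204.9 ± 31.9) were free of overlap, and the 2 control groups overlapped.

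Nfil3, the repressor at the same sites, was dim. Its signals were 158.3, 37.9 and 184.6 in young controls and 153.0, 179.7 and 167.0 in young mdx hearts, and 118.1, 77.4 and 97.0 in old controls and 101.4, 186.5 and 71.1 in old mdx hearts. All 4 groups overlapped with their neighbours, and single arrays (37.9 and 186.5) set the spread of 2 groups. The difference of 0.48 ± 0.36 at 8 weeks did not pass (95% interval -0.30 to 1.26, adjusted p = 0.529 in limma) and was -0.03 without control replicate 2. At 10.5 months it was 0.17 ± 0.36, and -0.13 without mdx replicate 2.

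Bhlhe41 was near the lowest level tested, so its differences come from a fit without the filter. It gave 130.6, 103.0 and 142.9 in young controls, 150.9, 79.2 and 57.9 in young mdx hearts, 75.6, 95 and 118.8 in old controls and 90.3, 88.8 and 60.8 in old mdx hearts. No 2 neighbouring groups were apart. The difference was -0.36 ± 0.25 at 8 weeks (95% interval -0.89 to 0.18, adjusted p = 0.488 in limma) and -0.20 ± 0.25 at 10.5 months.

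**Figure D1:**
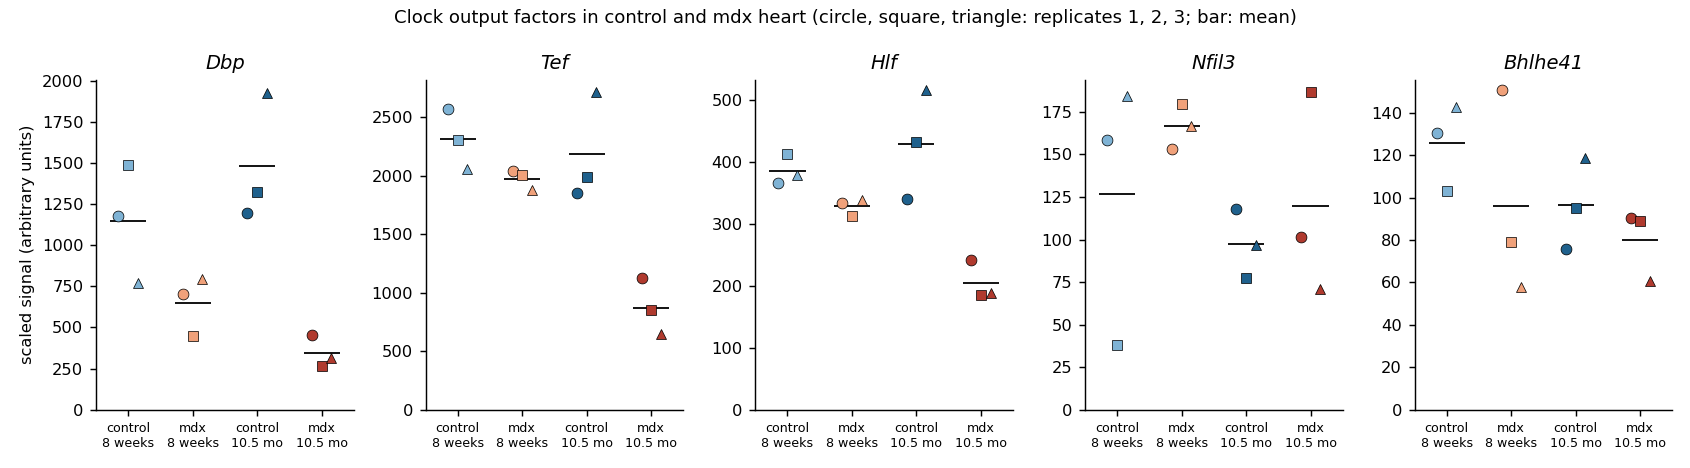
Scaled signal (arbitrary units, linear axes from 0, a separate axis per gene) of the brightest probe set of each gene on the 12 arrays, by group. Points are arrays, with circle, square and triangle for replicates 1, 2 and 3, and bars are group means. For Dbp, Tef and Hlf the 3 mdx arrays at 10.5 months lie below all control arrays, while for Nfil3 and Bhlhe41 the groups overlap.

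Against the whole array, limma called 343 probe sets at 8 weeks, 2.3% of those tested, and 7 at 10.5 months, 0.0469%. The 0 of 4 genes called at 8 weeks thus stand beside a low background, and 1 of the 4 (Dbp) had an unadjusted p below 0.05 in limma, as did 2661 of all probe sets. The 3 mdx arrays lay below the 3 controls for 2 of 4 genes and 3 of 8 probe sets at 8 weeks, against 10.1% of all tested probe sets (after quantile normalization 1 of 4 genes). At 10.5 months this held for 3 of 4 genes and 6 of 8 probe sets, against 10.6%, from which nothing is read because the genes were chosen there. The median difference of the 4 genes was -0.22 at 8 weeks (all tested genes -0.01) and -1.13 at 10.5 months (all genes -0.02).

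Different probe sets of a gene sample different parts of its transcripts, and for Tef they disagreed. The second probe set of Dbp gave 1163.2, 639.7 and 452.3 in young controls against 471.1, 314.6 and 888.1 in mdx hearts, with a difference of -0.43 ± 0.38 (adjusted p = 0.605 in limma). In old hearts it gave 914.4, 869.2 and 1223.4 against 413.9, 177.6 and 324.1, a difference of -1.67 ± 0.38. It thus separated the old groups as the first one did, and the young groups overlapped in both.

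The second probe set of Tef gave 565.4, 532.7 and 491.4 in young controls against 312.1, 281.9 and 366.0 in young mdx hearts. This separation was wider than in the brightest probe set, with a difference of -0.68 ± 0.28 that did not pass (adjusted p = 0.219 in limma). In old hearts it gave 442.1, 412.4 and 643.5 against 277.2, 214.4 and 91.5, a difference of -1.31 ± 0.28. The third and dimmest probe set of Tef overlapped between the groups at both ages, at 0.02 ± 0.22 (adjusted p = 0.984) and -0.29 ± 0.22. The mean of the 3 probe sets was -0.97 ± 0.17 at 10.5 months. For Hlf the second probe set gave -0.20 ± 0.20 at 8 weeks (adjusted p = 0.636). There its controls (368.5, 490.0 and 302.7) overlapped with its mdx hearts (299.4, 321.3 and 361.2). At 10.5 months it gave -0.76 ± 0.20, where its groups of 349.6, 293.6 and 398.2 and of 189.1, 243.2 and 151.0 did not overlap.

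**Figure D2:**
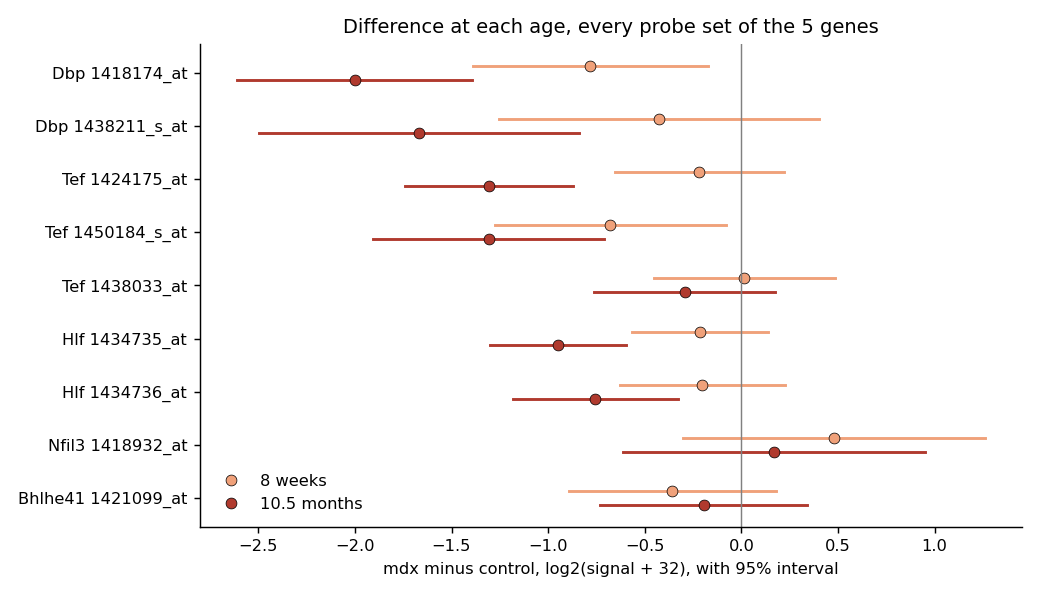
Difference between mdx and control hearts at 8 weeks and 10.5 months on the log2(signal + 32) scale for all 9 probe sets, with 95% intervals of the fit (Bhlhe41 from the fit with no filter). At 10.5 months the points of the 2 Dbp probe sets lie at -2.00 and -1.67, and the dimmest Tef probe set stands apart from the brighter ones of its gene at -0.29.

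Age was also compared within each genotype, first on the brightest probe set of each gene. In control hearts the values at 10.5 months minus those at 8 weeks were 0.38 ± 0.28 for Dbp, -0.09 ± 0.20 for Tef and 0.13 ± 0.16 for Hlf. Within mdx hearts they were -0.84 ± 0.28, -1.18 ± 0.20 and -0.61 ± 0.16, with no overlap between the ages for Tef and Hlf and with overlap for Dbp, where the highest old array (457.0) reached above the lowest young one (446.6). The mdx difference at 10.5 months minus that at 8 weeks was -1.22 ± 0.40 for Dbp, -1.09 ± 0.29 for Tef and -0.74 ± 0.23 for Hlf, against -0.31 ± 0.51 for Nfil3 and 0.16 ± 0.35 for Bhlhe41. These comparisons share the 10.5-month arrays that entered the choice of the genes, so they carry no test.

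Replicates of a group varied widely for Dbp and Nfil3. The pooled SD of Dbp within groups was 0.40 log2 units, above 87.8% of all tested probe sets, whose median was 0.24, and that of its second probe set was 0.57 (above 97.1%). Tef stood at 0.26 (57.3%) and its second probe set at 0.39 (87.1%), Hlf at 0.18 (23.1%) and Nfil3 at 0.54 (96.2%). Among probe sets of like signal only, the brightest ones of Dbp, Tef, Hlf and Nfil3 were above 95.9%, 80.9%, 22.3% and 89.1%. Among clock genes Per1 was close to Dbp (0.44, above 90.8%) and Per3 was among the tightest on the array (0.12, above 4.49%). Over the 12 arrays the log2 levels of Dbp and Hlf correlated at r = 0.93, of Tef and Hlf at 0.93 and of Dbp and Tef at 0.84, and after the group means were taken off these were 0.71, 0.72 and 0.57. Other probe sets gave lower values without the group means. The second of Dbp correlated at 0.36 with the brightest of Hlf and at 0.34 with that of Tef. The third of Tef stood at -0.32 with the brightest of Dbp. For the second of Hlf the value was 0.44 with the brightest of Dbp and 0.20 with that of its own gene. With Nfil3, Dbp correlated at -0.36 (-0.55 without the group means). The 12 points share 4 groups, so these values are a description.

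By the same measure, the genes whose level followed Dbp most closely among 8708 named genes were ranked over the 12 arrays. Nr1d2, which encodes the clock repressor REV-ERB beta, came first, with r = 0.963 and 0.874 after the group means were taken off. Its signals were 2995.2, 3039.7 and 2277.3 in young controls, 2773.4, 2114.4 and 2458.1 in young mdx hearts, 3323.3, 3118.7 and 3598.2 in old controls and 2023.1, 1472.7 and 1557.3 in old mdx hearts. The lowest control array of Nr1d2 was the lowest of Dbp too (replicate 3 at 8 weeks), and so was the lowest array of all (mdx replicate 2 at 10.5 months). Hlf followed at r = 0.934. Next came the period gene Per3 (0.891, and 0.341 without the group means), the antiproliferative gene Tob2 (0.884, 0.141) and the Wnt cofactor gene Bcl9 (0.881, 0.743). The last 3 of the 8 highest were the deubiquitinase gene Usp2 (0.868, 0.653), the purine synthesis gene Ppat (0.867, 0.790) and the transcriptional cofactor gene Cited2 (0.845, 0.388). For Per3, Tob2 and Cited2, most of the likeness lay between groups and little within them. Tef was at place 11.

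At the other end stood the matrix-associated gene Svep1 (r = -0.925, and -0.689 without the group means), the matrix growth factor gene Ccn2 (-0.910, -0.690), Ctla2b (-0.898, -0.566) and Pcbd1 (-0.889, -0.514). Ccn2 was at 1002.6, 668.4 and 1024.3 in young controls and at 1362.6, 1930.8 and 1540.5 in young mdx hearts, and at 1199.2, 1003.6 and 1003.4 in old controls and 2846.5, 2854.8 and 2780.4 in old mdx hearts. Its array order ran against that of Dbp, and the mdx arrays were above the controls at both ages. Without the 2 arrays farthest from the median of Dbp (mdx replicate 2 and control replicate 3 at 10.5 months) the 12 genes named as highest and lowest kept r of at least 0.742 or at most -0.818. These genes were picked by r over all 12 arrays, so high values on the remaining arrays follow in part from that choice. Arntl, which encodes BMAL1 and cycles in antiphase to Dbp in many tissues, had r = -0.737 (-0.717 without the group means), at place 31 from the lowest.

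**Figure D3:**
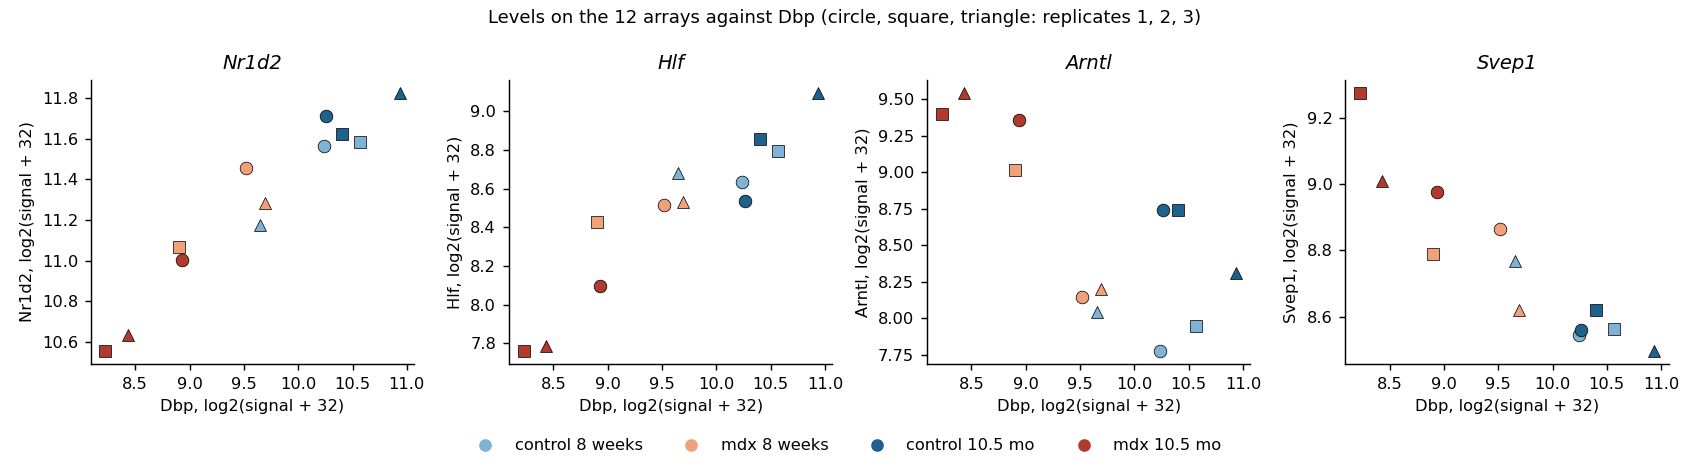
Levels of Nr1d2, Hlf, Arntl and Svep1 against Dbp on the 12 arrays, on the log2(signal + 32) scale, with colours for groups and circle, square and triangle for replicates 1, 2 and 3. Over all arrays Nr1d2 and Hlf rise along Dbp (r = 0.963 and 0.934), and Arntl and Svep1 run downward (r = -0.737 and -0.925). After the group means are taken off, r is 0.874 for Nr1d2 and 0.713 for Hlf on its brightest probe set.

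The core clock was read from 14 genes, of which 12 passed the filter and Npas2 and Cry1 were below it. At 10.5 months 0 of the 12 passed the test in limma, 5 had an unadjusted p below 0.05 (650 of all 8852 genes did), and 9 had negative values, with a median of -0.45 against -0.02 for all genes. The mdx arrays lay below all controls for 4 of them (Per1, Per3, Nr1d1 and Nr1d2), against 10.6% of all probe sets, and above for 1 (Arntl), against 7.51%. The list was chosen with earlier results of these data known, so these counts are a description. At 8 weeks the median was 0.05, 0 lay below the controls, 3 lay above them (Arntl, Cry2 and Csnk1d), against 9.51%, and 1 passed. At 8 weeks 6 of the 12 had an unadjusted p below 0.05, as did 1566 of all genes.

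The clock activators came first in this list. Arntl gave 186.9, 214.1 and 231.3 in young controls against 251.3, 484.4 and 262.0 in young mdx hearts, and 396.2, 395.7 and 285.4 in old controls against 622.8, 643.6 and 714.4 in old mdx hearts. The mdx arrays were the higher ones at each age without overlap, and the differences of 0.53 ± 0.22 and 0.84 ± 0.22 did not pass (adjusted p = 0.218 and 0.367 in limma). Clock, which encodes its partner, was at 0.19 ± 0.21 and 0.05 ± 0.21 (adjusted p = 0.687 and 0.973).

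The period genes, whose proteins inhibit CLOCK and BMAL1, had negative values at both ages. Per3 came nearest to the threshold at 10.5 months, with 220.7, 255.2 and 272.1 in controls against 137.0, 111.5 and 114.3 in mdx hearts (-0.88 ± 0.14, adjusted p = 0.0529 in limma, and 0.0294 to 0.363 over the alternatives tried). It passed without mdx replicate 3 of 8 weeks, which enters through the shared spread (adjusted p = 0.0421), and under an offset of 16, a floor of 64 and the mean over probe sets of a gene. At 8 weeks Per3 was at -0.11 ± 0.14 (adjusted p = 0.742). Per1 was at -0.81 ± 0.30 and -1.15 ± 0.30 (adjusted p = 0.184 and 0.367) and Per2 at -0.70 ± 0.27 and -0.41 ± 0.27 (adjusted p = 0.193 and 0.770).

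The repressors REV-ERB alpha and beta, encoded by Nr1d1 and Nr1d2, had values near 0 at 8 weeks and negative ones at 10.5 months. Nr1d1 gave 1215.1, 913.8 and 1298.8 in old controls against 790.1, 599.0 and 452.1 in old mdx hearts, and its differences were 0.02 ± 0.20 at 8 weeks and -0.88 ± 0.20 at 10.5 months (adjusted p = 0.970 and 0.309 in limma). For Nr1d2 they were -0.17 ± 0.17 and -0.99 ± 0.17 (adjusted p = 0.647 and 0.0879). Both were separated in old hearts and overlapped in young ones, and neither passed.

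The remaining clock genes did not move as one. Bhlhe40, the close relative of Bhlhe41, was at -0.83 ± 0.33 and -0.48 ± 0.33 (adjusted p = 0.213 and 0.784 in limma). Without mdx replicate 3 it passed at 8 weeks (-1.25, adjusted p = 0.0448). Cry2 was at 1.05 ± 0.36 at 8 weeks and -0.78 ± 0.36 at 10.5 months (adjusted p = 0.157 and 0.674), and Rora, an activator at REV-ERB sites, was at 0.13 ± 0.17 and -0.31 ± 0.17 (adjusted p = 0.740 and 0.713). Of the kinases that phosphorylate the period proteins, Csnk1e was at 0.09 ± 0.15 and -0.12 ± 0.15 (adjusted p = 0.809 and 0.885). Csnk1d rose at 8 weeks by 0.81 ± 0.17 (adjusted p = 0.0361), from 1045.5, 1195.8 and 1207.2 to 2590.5, 1899.9 and 1700.8, and was at 0.00 ± 0.17 at 10.5 months (adjusted p = 0.999). This call rested on the brightest probe set, since the mean of the gene's probe sets gave -0.05. It was also lost without any 1 of the 3 controls or of mdx replicates 1 and 2 at 8 weeks (adjusted p = 0.0536 to 0.115), and without control replicate 1 or 2 or mdx replicate 2 at 10.5 months (0.0515 to 0.0577), and with only the 2 groups compared (0.165).

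**Figure D4:**
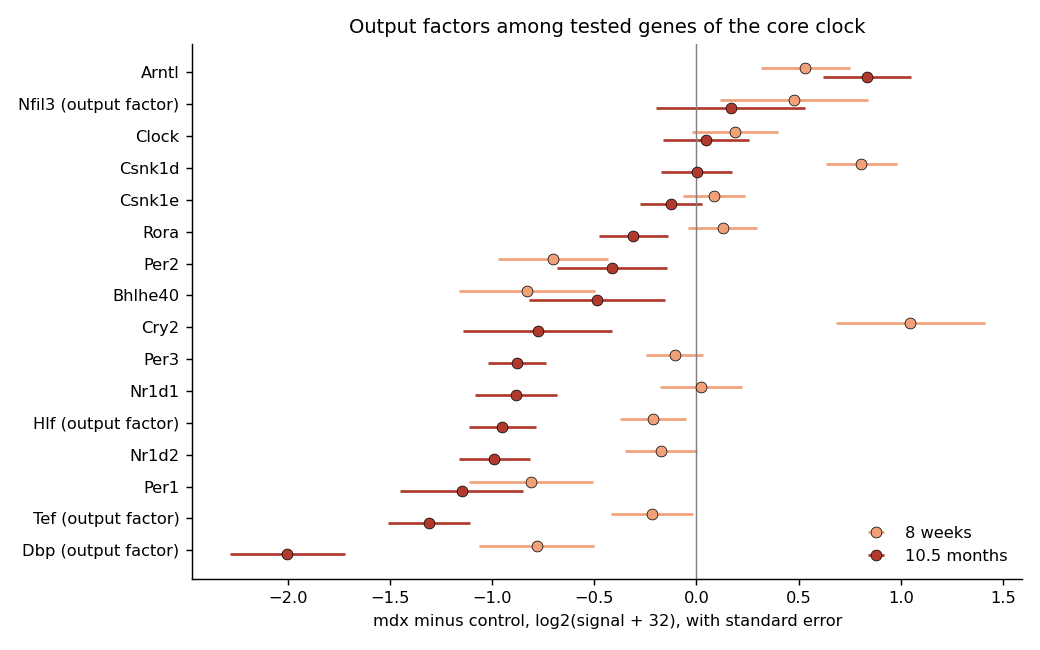
Difference between mdx and control hearts at 8 weeks and 10.5 months, on the log2(signal + 32) scale with standard errors, for the 12 tested core clock genes and the 4 tested output factors, ordered by the value at 10.5 months. Dbp and Tef have the most negative values at 10.5 months (-2.00 and -1.31), and Arntl has the most positive (0.84).

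Direct targets reported for the PAR bZIP factors in liver and other tissues were followed in 10 genes, of which 7 were tested. By limma 0 passed at either age, and the medians were -0.02 at 8 weeks and -0.25 at 10.5 months. An unadjusted p below 0.05 was seen for 1 of the 7 at each age, and for 1566 and 650 of all 8852 genes. Ppara, the fatty acid receptor gene, came nearest at 8 weeks (-0.49 ± 0.19, adjusted p = 0.191), and the acyl-CoA thioesterase gene Acot1 at 10.5 months (-0.93 ± 0.35, adjusted p = 0.640). Acot1 gave 435.7, 153.8 and 166.8 in old controls against 122.0, 78.1 and 114.6 in old mdx hearts, where control replicate 1 set most of the difference in means.

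Of 18 tested genes known as rhythmic outputs of the clock in heart or other tissues, 2 fell at 8 weeks, where 85 of all 8852 genes were called lower. Bdh1, a ketone body enzyme, went from 1300.1, 1369.2 and 1862.0 to 650.8, 653.9 and 923.5 (-0.99 ± 0.19, adjusted p = 0.0251 in limma). Klf15, a regulator of heart metabolism, went from 885.2, 665.5 and 642.2 to 368.7, 309.0 and 445.0 (-0.91 ± 0.20, adjusted p = 0.0383). At 10.5 months they were at 0.19 ± 0.19 and -0.31 ± 0.20 (adjusted p = 0.858 and 0.768), and 0 of the 18 passed, with 7 at an unadjusted p below 0.05 (650 of all 8852 genes were). There, 14 of 18 had negative values (median -0.21), as did 4768 of all 8852 genes, 8 lay below the controls on all 3 mdx arrays (10.6% of all probe sets did), and Usp2 came nearest (-0.86 ± 0.21, adjusted p = 0.367). At 8 weeks 12 of the 18 had negative values (median -0.09), as did 4574 of all genes, and 6 lay below the controls (10.1% of all probe sets did). The Bdh1 call was lost without control replicate 3 or mdx replicate 1 or 2 at 8 weeks (adjusted p = 0.0571 to 0.0973), with the atrial covariate (0.0628) and with only the 2 groups compared (0.139). The Klf15 call was lost without any 1 control array or mdx replicate 1 or 2 at 8 weeks (adjusted p = 0.0529 to 0.127), and without any 1 control array or mdx replicate 1 at 10.5 months (adjusted p = 0.0503 to 0.0604). It was also lost with the atrial covariate (0.0832), with the signal range covariate (0.0573) and with only the 2 groups compared (0.146).

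Glucocorticoids set the phase of clocks in heart and act on Per1 and Klf9 directly, so their response genes were read as well. Of 12 tested, 0 passed at either age, and the medians were -0.28 and -0.05. At 8 weeks 5 and at 10.5 months 4 had an unadjusted p below 0.05 in limma, as did 1566 and 650 of all 8852 genes. The leucine zipper gene Tsc22d3 came nearest at 8 weeks (-0.60 ± 0.18, adjusted p = 0.101 in limma), and Per1 at 10.5 months. Per1, Tsc22d3 and Klf9 are shared between lists. Of the 4 tested C/EBP genes, bZIP factors whose sites resemble the D-box, 0 passed, with 2 and 1 at an unadjusted p below 0.05, beside the same shares of all genes. Cebpb was nearest at both ages, at -0.62 ± 0.20 and -0.81 ± 0.20 (adjusted p = 0.125 and 0.365). It passed at 8 weeks without mdx replicate 3 (-0.84, adjusted p = 0.0373).

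Cell markers were compared too. Of the fibroblast, macrophage and endothelial markers 0 passed at either age in limma (smallest adjusted p = 0.367, 0.322 and 0.104). Fibroblast markers summed to 18660 to 19450 in old controls and 20440 to 27680 in old mdx hearts. There 6 of 6 were positive and 3 of 6 were higher on all mdx arrays, against 7.51% of all probe sets. At 8 weeks the sums were 16070 to 18890 and 20780 to 23520, with 6 of 6 positive and 0 of 6 higher on all mdx arrays, against 9.51%. Macrophage markers summed to 7331 to 10460 and 8943 to 14250 in old hearts, with 6 of 6 positive and 0 of 6 higher on all mdx arrays. At 8 weeks they summed to 8146 to 10030 and 10270 to 11060, with 5 of 6 positive and 1 of 6 higher on all mdx arrays. Endothelial markers summed to 4892 to 5436 and 4127 to 5243 in old hearts, with 5 of 6 negative. There 2 of 6 were lower on all mdx arrays, against 10.6% of all probe sets. At 8 weeks the endothelial sums were 5692 to 6654 and 4839 to 6034, with 6 of 6 negative and 1 of 6 lower on all mdx arrays, against 10.1%. The 3 tested smooth muscle markers did not go together. Acta2 fell at 8 weeks (-0.80 ± 0.14, adjusted p = 0.0184 in limma) and was at 0.64 ± 0.14 at 10.5 months (adjusted p = 0.287). Myh11 was at 0.42 ± 0.32 and -0.67 ± 0.32 (adjusted p = 0.529 and 0.675), and Tagln at 0.08 ± 0.14 and 0.20 ± 0.14 (adjusted p = 0.815 and 0.789). Of the adipocyte markers only Cidea passed the filter (-0.23 ± 0.17 and 0.23 ± 0.17, adjusted p = 0.519 and 0.791), and Adipoq was at most 44.5 in old hearts. The part of these cells in the levels of Dbp, Tef and Hlf was not tested.

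Atrial marker levels differed between arrays of a group. Of the 6 atrial markers 5 had negative values at 10.5 months, and their sums were 5057 to 23270 in old controls and 11940 to 18300 in old mdx hearts. The atrial myosin gene Myl7 was 3553.8 and 2215.7 in old control replicates 1 and 2 but 130.5 in replicate 3, against 269.8, 150.8 and 284.2 in old mdx hearts. Most of each sum was Nppa, which is also raised in stressed ventricle and was the 1 marker with a positive value at 10.5 months (0.76 ± 0.31, adjusted p = 0.666 in limma). Sln, another atrial gene, was 2242.4, 1220.0 and 9.1 in these controls. Control replicate 3, with the least atrial signal, had the highest Dbp, Tef and Hlf of the old hearts. Without it the 10.5-month differences were -1.80 for Dbp, -1.14 for Tef and -0.82 for Hlf, and with the mean atrial level as a covariate they were -2.26, -1.51 and -1.12. At 8 weeks all 6 atrial markers had positive values, with sums of 4509 to 6509 in controls and 12030 to 13130 in mdx hearts, of which Nppa made up 3411.6 to 4983.2 and 9769.1 to 11200.8. With the covariate the 8-week differences were -0.61 for Dbp, -0.09 for Tef and -0.105 for Hlf. The covariate was the mean log2 level of all 6 markers, Nppa among them. At 8 weeks it was 8.49 to 8.76 on control arrays and 9.25 to 9.69 on mdx arrays, without overlap. Atrial level and genotype cannot be told apart there, and why the differences moved was not tested.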

How the data were processed

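Arrays of mouse heart (3 per group, 4 groups) were grouped by their titles. The deposited values are intensity on a linear scale, already scaled by the authors, since the trimmed mean (2% off each end) was 1500.6 to 1500.9 on every array of 22690 probe sets. A standard Affymetrix protocol was used, per the labels' protocols; the summarisation software, detection calls and genome build are not given in the sources used here. Arrays carry no read depth, and their number limits the precision.

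All arrays were set to a trimmed mean of 500, and log2(signal + 32) was taken, an offset of 96 deposited units. After 64 control probe sets were left out, 14932 probe sets with a mean of at least 100 were tested. Gene names came from the platform annotation (20393 with 1 gene, 691 with several, 1606 with none), and a gene is represented by its brightest probe set. In R 4.3.3, limma 3.58.1 (lmFit, eBayes) fitted the 4 group means to the 12 arrays together for 5 comparisons (mdx at each age, age in each genotype, and the difference of the mdx effects), with 8 residual and 5.2 prior degrees of freedom. A change was called at a Benjamini-Hochberg adjusted p below 0.05 over all tested probe sets. An exact permutation test of 3 against 3 arrays cannot go below 0.1, so none was used. The fit was also run on simulated data with independent noise for each probe set. Changes were put into the mdx arrays of 8 weeks only, so that run says nothing about variation shared between probe sets.

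The 5 genes and all lists were chosen with earlier results of these data known, so counts of separated groups within lists are a description. All 5 genes are named with every probe set, the analysed core clock genes in full, and from other lists up to 4 called genes or otherwise the gene of smallest p. Usp2 and Per1 fall under more than 1 of these rules. Genes named for likeness are the 8 highest and 4 lowest by Pearson r with Dbp, among genes with a proper symbol. Same-numbered replicates deviated from their group means with correlations of -0.129 to 0.135 at 8 weeks and -0.089 to 0.025 at 10.5 months, so the numbers were not taken to pair arrays.

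Alternatives were quantile normalization, an offset of 16, a floor of 64, no filter, a mean of at least 200, only the groups compared, the replicate number as a block, the signal range or the atrial level as a covariate, the mean over probe sets of a gene, and each array left out.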

Additional observations from a re-analysis of the deposited data

How the results depend on the processing

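By limma, 0 of the 4 tested output factor genes were called at 8 weeks in each of the 22 alternatives (21 for Nfil3), with adjusted p of 0.118 to 0.351 for Dbp, 0.379 to 0.870 for Tef, 0.488 to 0.800 for Hlf and 0.269 to 0.959 for Nfil3. At 10.5 months the differences ran from -2.26 to -1.80 for Dbp, -1.51 to -0.97 for Tef and -1.12 to -0.82 for Hlf. With the mean over probe sets of a gene, the median of the 4 genes was -0.91 at 10.5 months and -0.66 for the difference between the ages, and with the atrial covariate the latter was -1.22. A mean signal of at least 200 removed Nfil3, so this median could not be given there, and Bhlhe41 has values only with no filter. Core clock genes called at 8 weeks went from 1 to 0 with only the 2 groups compared, with the replicate block and with the mean of probe sets, and were 0 to 2 when each array was left out. At 10.5 months they went from 0 to 1 with an offset of 16, a floor of 64 and the mean of probe sets (Per3, adjusted p = 0.0458, 0.0322 and 0.0294) and with a mean of at least 200 (Nr1d2, 0.0478), and were 0 to 1 when each array was left out. Probe sets called at 8 weeks were 23 with only the 2 groups, 176 with the replicate block, 121 with the atrial covariate and 193 with the mean of probe sets, and 42 to 308 when each array was left out. At 10.5 months they were 3 with the replicate block, 4 with the mean of probe sets and 1 to 12 when each array was left out. The replicate numbers share only a number, and with the block 0 of the 4 output factor genes were called at 8 weeks, as without it. Signs turned for small differences when arrays were left out, with ranges at 8 weeks of -0.034 to 0.782 for Nfil3 (lowest without control replicate 2), -0.063 to 0.106 for Nr1d1, -0.04 to 0.17 for Csnk1e and -0.317 to 0.054 for Usp2. At 10.5 months the ranges were -0.149 to 0.30 for Clock and -0.078 to 0.104 for Csnk1d. Csnk1d also turned at 10.5 months with the signal range covariate (-0.077), the atrial covariate (-0.133) and the mean of probe sets (-0.154), and the last turned Clock (-0.042) and Csnk1d (-0.049) at 8 weeks. None of the turned values passed the test in limma, and the cause was not tested. Dim probe sets (Nfil3, Bhlhe41 and the third of Tef) lie near the offset, which limits what their values can show.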
